A study of Mus musculus with 8 samples.

Results

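The keratin genes of the kidney were examined in mice lacking Keap1. Keratins are the intermediate filament proteins of epithelial cells, and a filament is built from pairs of a type I and a type II chain, so that each epithelium makes a matched set. Krt8 and Krt18 are the set of simple epithelia and are joined by Krt7 and Krt19 in ducts. Krt5, Krt14 and Krt15 belong to the basal cells of stratified epithelia, and Krt13 and Krt20 are found in the urothelium, the lining of the renal pelvis and the bladder, with Krt20 in its superficial cells. Keap1 holds the transcription factor Nrf2 at a low level, and loss of Keap1 in the oesophagus is known to cause hyperkeratosis.

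All named genes with a symbol of Krt followed by a number were taken, which gave 40 of the 18217 named genes on the array; keratin-associated proteins were not included. Of these, 21 are type I and 19 are type II genes. A gene was tested when 4 or more of the 8 arrays had a probe well above background. In all 16 keratins passed, 12 of type I and 4 of type II, and 14 of these were well above background on all 8 arrays (the exceptions were Krt88 and Krt222). The other 24 were treated as not detected.

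Whole-kidney RNA of 8 mice aged 8 weeks was hybridised to Agilent 1-colour arrays, 1 array per mouse. The 4 NEKO mice (replicates 2 and 3 female, 5 and 6 male) were Keap1-/-, and carried Nrf2Flox/Flox and K5-Cre. The 4 control mice were Keap1+/- and also Nrf2Flox/Flox; replicates 4 and 7 (male) and 8 (female) carried K5-Cre (K1Cre), and replicate 1 (female) did not (K1). K5-Cre acts in squamous epithelium and deletes the floxed Nrf2 there, and the background was a mixture of 129Sv/J and C57BL/6J. Females lay on 1 slide and males on the other, each with 2 NEKO and 2 control mice, so slide and sex cannot be told apart. Levels below are log2 signal set against the 75th percentile of each array, a change is the NEKO mean minus the control mean on this scale, and groups were compared in limma with sex as a term and adjustment over all 19593 genes and unnamed transcripts tested. Levels of different genes come from different probes and are not ranked against each other.

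Keap1 was 0.20 ± 0.17 in NEKO and 1.84 ± 0.07 in control kidneys (mean ± SD, n = 4 each), a change of -1.63 without overlap of the groups (limma adjusted p = 0.00458). The Nrf2 target Nqo1, a quinone reductase, was 3.89, 4.41, 5.25 and 5.45 in the NEKO mice and between 1.24 and 2.46 in the control mice (change 2.62, adjusted p = 0.0651). Between 61.8% and 65.7% of spots were well above background on each array and none were saturated. The proximal tubule list, which marks the most abundant cells of the kidney, had mean levels between 6.00 and 6.09 in NEKO and between 5.89 and 6.16 in control kidneys.

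No keratin passed an adjusted p of 0.05 in either direction. Over all features 0.0970% were called higher and 0.128% lower in NEKO kidneys, so calls were rare throughout. When the genotype effect was instead averaged over the sexes in a model with their interaction, Krt19 (adjusted p = 0.00643) and Krt18 (adjusted p = 0.0282) passed. The share of all features that passed in that model was not counted. At an unadjusted p under 0.05, 8 of the 16 keratins were higher in NEKO kidneys (Krt5, Krt19, Krt15, Krt20, Krt14, Krt18, Krt13 and Krt8) against 7.37% of all features. In the same way, 2 of 16 were lower (Krt88 and Krt222) against 10.6% of all features. Of these, Krt88 was well above background on 1 of 4 NEKO and 4 of 4 control arrays. It passed the detection filter through the control mice, where it was higher. The groups were separate, with all NEKO mice above all control mice, for 3 keratins (Krt5, Krt19 and Krt18) against 3.88% of features, and with all NEKO mice below for 0 of 16 against 5.39%. The median change over the 16 keratins was 0.14, and that over all features was -0.03. By type, the median was 0.36 for the 12 type I genes and 0.04 for the 4 type II genes. In an exact permutation test of 4 mice against 4, the smallest p possible is 0.0286, and it was reached by Krt5, Krt19 and Krt18 alone among the keratins, each read from its brightest probe.

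**Figure D1:**
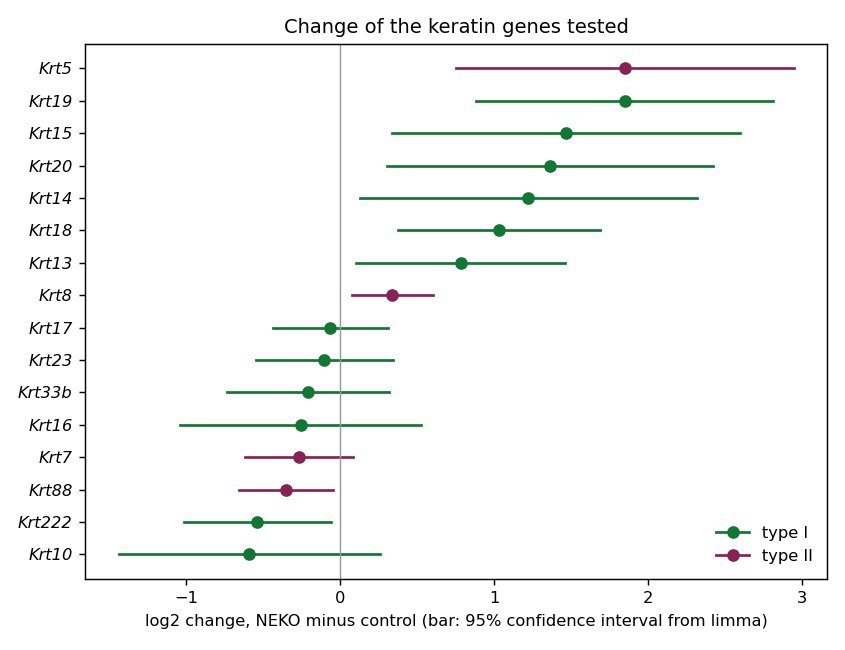
Change of the 16 tested keratins, with the log2 change (NEKO minus control) on the horizontal axis and 95% confidence intervals from limma as bars; type I genes are green and type II genes purple. Krt5 and Krt19 lie at 1.85, 8 intervals lie above 0, and those of Krt88 and Krt222 lie below 0, all without adjustment for multiple testing. Krt88 passed the detection filter through the control arrays.

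The keratins of basal cells and of stratified epithelium were tested for 6 of their 12 genes. Of these, 4 (Krt5, Krt14, Krt15 and Krt13) had a positive change at an unadjusted p under 0.05, against 7.37% of all features. The median change over the 6 was 1.00. Krt5, the type II keratin of basal cells, was -1.03, 0.36, 0.55 and 0.13 in NEKO replicates 2, 3, 5 and 6. In control replicates 1, 4, 7 and 8 it was -1.20, -2.85, -1.78 and -1.56. The groups did not overlap, but NEKO replicate 2 was closer to the control mice than to the other NEKO mice. The change was 1.85 ± 0.47 (SE), a 3.61-fold higher mean signal, with a 95% interval of 0.75 to 2.95 and an adjusted p of 0.139.

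Krt14, the type I partner of Krt5 in basal cells, was -3.12, -1.73, -0.89 and -2.20 in the NEKO mice and -3.03, -3.65, -3.36 and -2.78 in the control mice, in the same order. NEKO replicate 2 lay within the control range and the other 3 NEKO mice lay above it. The change was 1.22 ± 0.46 (adjusted p = 0.239). Krt15, the other type I keratin of basal cells, was -1.20, 0.25, 0.98 and 0.68 in NEKO and -0.75, -1.88, -1.25 and -1.27 in control kidneys. The pattern over mice was that of Krt14, with NEKO replicate 2 inside the control range and 3 NEKO mice above all controls (change 1.47 ± 0.48, adjusted p = 0.201).

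Krt13, a type I keratin of intermediate urothelial cells and of the mucosa of the mouth and oesophagus, was between -3.52 and -2.38 in NEKO kidneys and between -4.02 and -3.12 in control kidneys. NEKO replicate 2 was again the lowest of its group and lay inside the control range (change 0.78 ± 0.29, adjusted p = 0.229). Its usual type II partner Krt4 was not detected on any array. Krt16 and Krt17, type I keratins known from wounded and rapidly dividing epidermis and from hair follicles, changed by -0.26 ± 0.33 and -0.06 ± 0.16 (adjusted p = 0.699 and 0.850). Their type II partners Krt6a and Krt6b were not detected on any array.

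The 6 keratins of simple epithelium on the array were all detected. Of these, 4 (Krt19, Krt20, Krt18 and Krt8) were higher in NEKO kidneys at an unadjusted p under 0.05, against 7.37% of all features. The median change over the 6 was 0.69. Krt19, a small type I keratin of ducts and of urothelium, was 0.29, 0.39, 1.61 and 1.54 in NEKO replicates 2, 3, 5 and 6. It was -0.18, -1.44, -1.14 and -0.82 in control replicates 1, 4, 7 and 8. The groups did not overlap, and both NEKO males exceeded both NEKO females. The change was 1.85 ± 0.41, a 3.60-fold higher mean signal, with a 95% interval of 0.88 to 2.82 and an adjusted p of 0.113.

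Krt18, the type I chain of simple epithelium, was 3.69, 3.58, 4.27 and 4.21 in the NEKO mice and 3.36, 2.27, 2.87 and 3.13 in the control mice. The groups were separate, with the smallest distance between NEKO replicate 3 and control replicate 1 (change 1.03 ± 0.28, 2.05-fold, adjusted p = 0.153). Krt8, its type II partner, was 4.70, 4.62, 5.20 and 5.12 in NEKO and 4.65, 4.67, 4.58 and 4.39 in control kidneys. Here the NEKO males stood above all other mice, and of the NEKO females replicate 2 lay just above and replicate 3 within the control range (change 0.34 ± 0.11, adjusted p = 0.202). A second probe of Krt8, also well above background on all 8 arrays, gave a difference of 0.45. It was 4.54, 4.58, 5.06 and 5.13 in the NEKO mice and between 4.20 and 4.45 in the control mice, so that on this probe the groups were separate. The mouse annotation holds a Krt8 pseudogene, and whether the Krt8 probes also pick up such a copy was not tested.

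Krt20, the keratin of superficial urothelial cells, was -2.16, -2.54, -2.21 and -2.57 in the NEKO mice, which spread little. In the control mice it was -4.53, -4.12 and -4.12 in replicates 4, 7 and 8, but -2.16 in replicate 1, the only control without K5-Cre. The change was 1.37 ± 0.45 with all mice (adjusted p = 0.202) and 1.87 without control replicate 1 (adjusted p = 0.0227), so that this mouse decided the call, and with a normexp background correction the change was 0.81. That mouse was also the highest control for Krt5, Krt19, Krt15, Krt18 and Krt13. The same held for Krt7, Krt23, Krt33b and Krt222, which had negative changes, so its high levels were not limited to keratins higher in NEKO kidneys. With 1 such mouse, the absence of K5-Cre and the individual cannot be told apart.

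Krt7, the type II keratin of ducts and urothelium, was 4.58, 4.81, 4.66 and 4.48 in NEKO and 5.29, 4.49, 4.94 and 4.86 in control kidneys, with overlapping groups (change -0.27 ± 0.15, adjusted p = 0.383). Its second probe, at lower signal, gave -0.25. Krt23, a type I keratin of glandular and ductal epithelia, changed by -0.10 ± 0.19 (adjusted p = 0.795), with intervals for both genes that include 0 (-0.62 to 0.09 for Krt7 and -0.55 to 0.34 for Krt23).

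**Figure D2:**
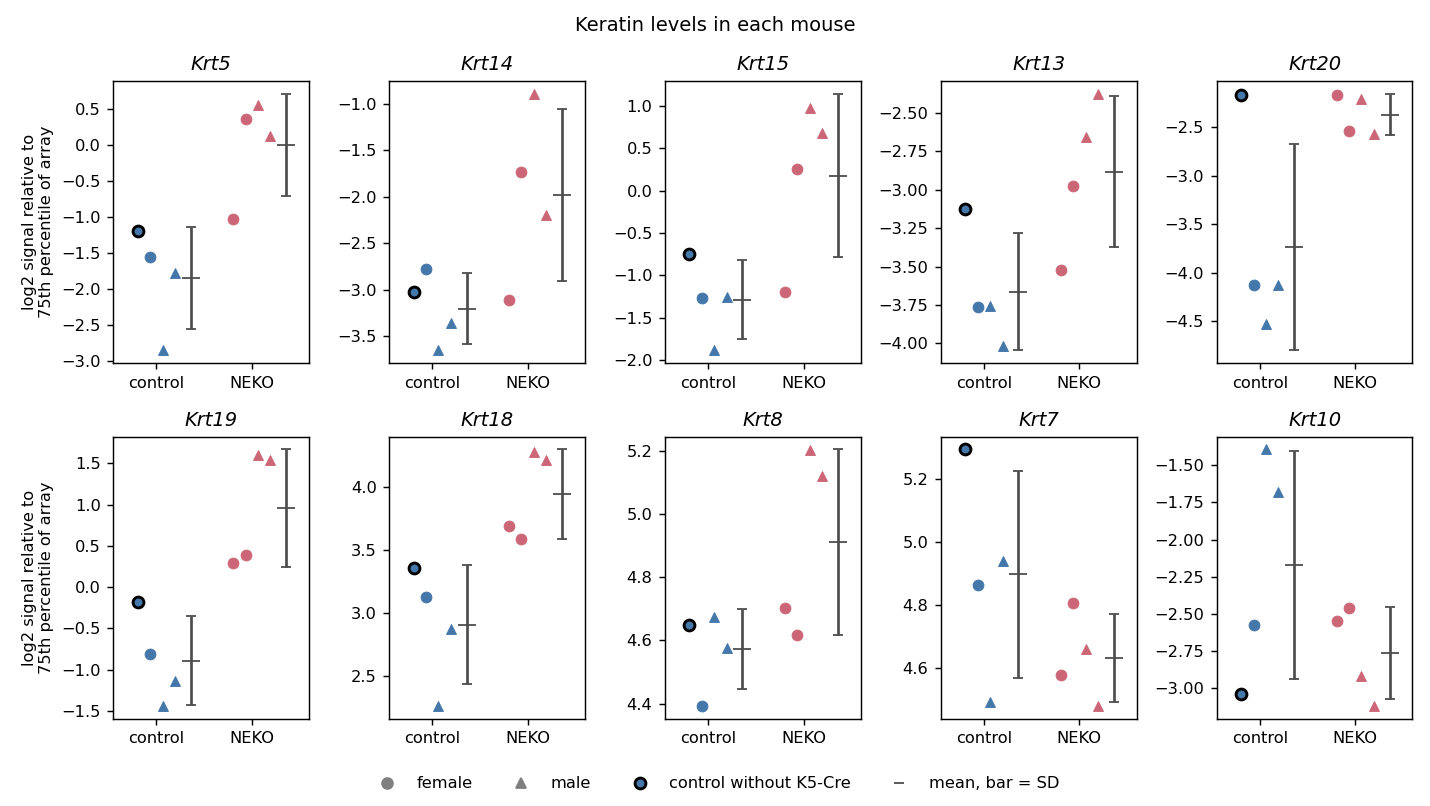
Levels of 10 keratins in each mouse (vertical axes: log2 signal against the 75th percentile of each array; each panel has its own scale), circles for females, triangles for males, a black outline for the control without K5-Cre, and mean ± SD (n = 4) beside each group. The groups are separate for Krt5, Krt19 and Krt18, while NEKO replicate 2 lies among the controls for Krt14, Krt15 and Krt13, and control replicate 1 lies among the NEKO mice for Krt20.

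The promoters of 3 of these genes are shown because their changes were among the larger ones, because Krt5 gives K5-Cre its promoter and name, and because Krt20 holds a match to the antioxidant response element. This element is the sequence that Nrf2 binds together with small Maf proteins, and its core was searched as TGACNNNGC on both strands. The sequences are the 250 bases before the start site from RefSeq on GRCm38.p6, written on the strand of the gene, with capitals for the match. They lie at chr15:101712906-101713155 (minus strand) for Krt5, chr15:102027966-102028215 (plus strand) for Krt18 and chr11:99438154-99438403 (minus strand) for Krt20.
Krt5: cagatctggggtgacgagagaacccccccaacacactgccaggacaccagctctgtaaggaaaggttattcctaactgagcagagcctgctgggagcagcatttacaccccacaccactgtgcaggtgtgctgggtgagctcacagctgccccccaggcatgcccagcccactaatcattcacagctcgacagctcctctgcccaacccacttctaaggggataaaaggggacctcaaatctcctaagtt
Krt18: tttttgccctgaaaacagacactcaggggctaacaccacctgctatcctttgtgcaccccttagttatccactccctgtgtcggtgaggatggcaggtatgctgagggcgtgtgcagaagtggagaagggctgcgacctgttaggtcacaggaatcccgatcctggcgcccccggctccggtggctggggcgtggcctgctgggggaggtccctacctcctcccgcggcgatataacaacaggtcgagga
Krt20: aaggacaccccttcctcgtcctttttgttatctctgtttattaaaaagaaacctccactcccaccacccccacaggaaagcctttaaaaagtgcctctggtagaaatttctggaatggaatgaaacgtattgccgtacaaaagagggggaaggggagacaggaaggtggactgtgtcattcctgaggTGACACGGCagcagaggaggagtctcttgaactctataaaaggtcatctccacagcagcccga
The Krt20 match, TGACACGGC, starts 63 bases before the start site, and the 250 bases of Krt5 and Krt18 hold no match. In windows that also include the first 50 bases of the transcript, Krt5 has a match, TGACCTCGC, starting 34 bases after the start site. Such windows were matched for 26 of the 40 keratin genes (27 promoters, since 1 gene has more than 1), and 7 of the 27 hold the core, or 25.9%, against 12.4% of 32851 promoters of all genes. Of the 16 tested keratins 10 have such a window (11 promoters), and Krt19 and Krt15 are among those not analysed here. Of these 11 promoters 3 hold it, those of Krt5, Krt20 and Krt33b, and the last of these, TGACATAGC, starts 188 bases before the start site of a gene with a change of -0.21. A longer form, which contains the core with G or C before it and A after it, is held by 4 of the 27 promoters and by 1.96% of all. These are matches of letters in a window and do not show binding.

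Among the remaining detected keratins, Krt10, the type I keratin of the upper epidermal layers, was -2.55, -2.46, -2.92 and -3.12 in NEKO replicates 2, 3, 5 and 6. It was -3.04, -1.39, -1.68 and -2.57 in control replicates 1, 4, 7 and 8, where both males stood above all other mice (change -0.59 ± 0.36, adjusted p = 0.415). The change was -0.36 without control replicate 4 and -0.86 without control replicate 1. Its type II partner Krt1 was not detected on any array. Krt222, a divergent type I gene, was between -5.49 and -3.83 in NEKO and between -4.77 and -3.63 in control kidneys (change -0.54 ± 0.20, adjusted p = 0.235), and was well above background in 3 of 4 NEKO mice. Krt88 lay near the limit of detection, with 1 of 4 NEKO and 4 of 4 control arrays well above background, with a change of -0.35 ± 0.13 (adjusted p = 0.226). With a normexp background correction the changes of Krt222 and Krt88 were -0.19 and -0.038. Krt33b, a type I hair keratin, changed by -0.21 ± 0.22 (adjusted p = 0.637), and its second probe was not above background on any array.

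The 24 keratins not detected were mostly those of hair and of the upper epidermis. They were 12 of the 13 keratins of hair and inner root sheath (Krt25, Krt26, Krt27, Krt31, Krt33a, Krt34, Krt35, Krt71, Krt82, Krt84, Krt86 and Krt87) and 5 of the 6 of suprabasal epidermis, palm and cornea (Krt1, Krt2, Krt9, Krt12 and Krt76). The other 7 were Krt4, Krt6a, Krt6b, Krt75, Krt78, Krt79 and Krt90. Of the 24, only Krt86 and Krt79 were well above background on 1 array each; the Krt86 signal was -3.15 and came from control replicate 1.

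Since keratins act as pairs, the changes of the usual partners are given side by side, without a test. Krt5 changed by 1.85 and its partners Krt14 and Krt15 by 1.22 and 1.47. Krt8 changed by 0.34 and Krt18 by 1.03. Krt7 changed by -0.27 and Krt19 by 1.85, a difference of 2.12 between the changes of the partners. The level of Krt19 minus that of Krt7 was between -4.42 and -2.94 in NEKO mice and between -6.08 and -5.47 in control mice, so that this difference did not overlap between the groups. The level of Krt18 minus that of Krt8 was between -1.04 and -0.91 in NEKO mice and between -2.41 and -1.26 in control mice, also without overlap. Krt19 and Krt18 were already separate on their own, so these differences are not a further result. The share of all gene pairs that separate in this way was not counted. The differences of Krt14 and of Krt15 from Krt5 overlapped between the groups. For Krt13, Krt10, Krt16 and Krt17 the type I chain was detected and the type II partners listed above were not.

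The change of the keratins was also compared between the sexes, which is at the same time a comparison of the slides. All 8 keratins with a positive change had a larger one in males than in females. The share of all features with a positive change that did so was not counted. A larger change in males was not particular to the keratins. The median change was 0.67 in females and 1.55 in males over the Nrf2 targets, and 0.06 and 1.45 over the urothelial genes, lists described below. In males, Krt19 changed by 2.86, Krt5 by 2.66, Krt15 by 2.40, Krt14 by 1.96, Krt20 by 1.94, Krt18 by 1.67, Krt13 by 1.37 and Krt8 by 0.54. In females the changes were 0.84 for Krt19, 1.04 for Krt5, 0.53 for Krt15, 0.48 for Krt14, 0.79 for Krt20, 0.39 for Krt18, 0.19 for Krt13 and 0.14 for Krt8. The female controls include the mouse without K5-Cre, while both male controls carried K5-Cre. Without that mouse, a comparison chosen after seeing the data that leaves 1 control female and allows no test within females, the female change was 1.77 for Krt20, 0.51 for Krt13 and 1.16 for Krt19. The male change then exceeded the female one by 0.16 for Krt20, in place of 1.14, and by 0.86 for Krt13 and 1.71 for Krt19. For Krt19 and Krt18 the values also show how this came about, since control males were lower than control females (means of -1.29 and -0.50 for Krt19, 2.57 and 3.24 for Krt18) while NEKO males were higher than NEKO females (1.57 and 0.34, 4.24 and 3.64). The means of Krt5, Krt15, Krt14 and Krt13 lay the same way. For Krt20 the NEKO males were not higher than the NEKO females, and for Krt8 the control males were not lower than the control females.

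The interaction of sex and genotype passed adjustment for 0 of 16 keratins, against 0.0153% of features. At an unadjusted p under 0.05, the change was higher in males for 4 keratins (Krt19, Krt18, Krt15 and Krt13), against 6.87% of features, and lower in males for 1 (Krt10), against 3.65%. The difference between the male and the female change was 2.03 ± 0.31 for Krt19 (adjusted p = 0.107), 1.28 ± 0.29 for Krt18 (adjusted p = 0.180) and -1.78 ± 0.27 for Krt10 (adjusted p = 0.104). For Krt10 the change was 0.30 in females and -1.48 in males, with both NEKO females above both control females and both NEKO males below both control males; without control replicate 1 the female change was 0.067.

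**Figure D3:**
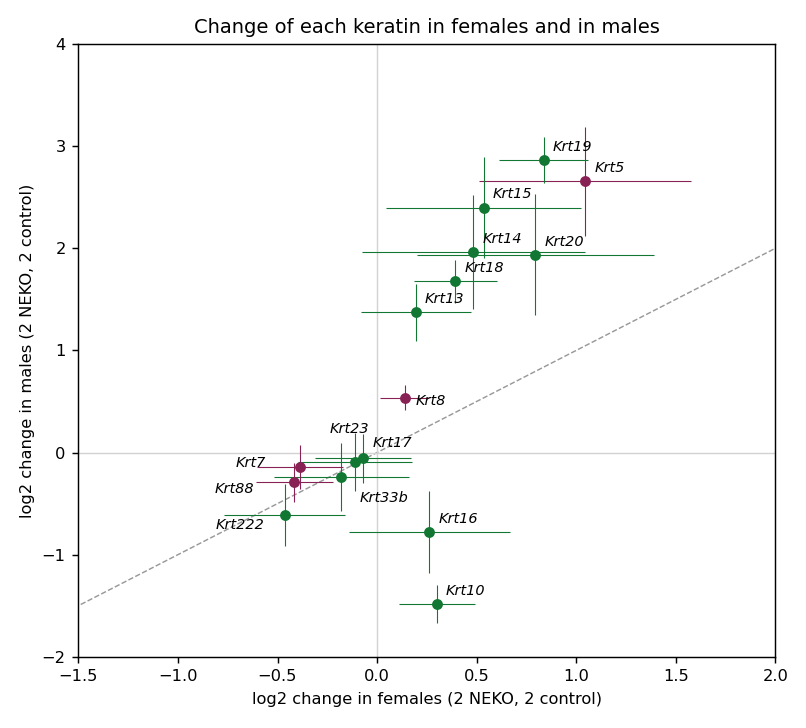
Change of each tested keratin in females (horizontal axis) and in males (vertical axis), both as log2 NEKO minus control from 2 against 2 mice, with SE bars, type I in green and type II in purple; the dashed line marks equal changes. Krt19, Krt5, Krt15, Krt14, Krt20, Krt18 and Krt13 lie above the line, and Krt10 lies below it at 0.30 in females and -1.48 in males.

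Markers of the urothelium, which also expresses Krt5, Krt7, Krt13, Krt19 and Krt20, were higher in some of the mice in which keratins were higher. Of these 5 keratins, Krt7 was not higher in NEKO kidneys (change -0.27, with overlapping groups). In whole-kidney RNA, a change in the number of cells of a type and a change in RNA per cell cannot be told apart. Of 9 urothelial genes on the array 7 were tested, 0 were called, and 4 were higher at an unadjusted p under 0.05, against 7.37% of all features, with a median change of 0.92. The 4 were the uroplakins Upk2 (1.80 ± 0.57, adjusted p = 0.195) and Upk1b (1.29 ± 0.52, adjusted p = 0.258), Psca, a surface antigen (0.96 ± 0.23, adjusted p = 0.128), and Upk3b (0.78 ± 0.14, adjusted p = 0.0776), which mesothelium also expresses. Upk3a had a change of 0.92 ± 0.50 and did not pass at the unadjusted p either (adjusted p = 0.371). Upk1a went the other way, with no overlap of the groups (-0.71 ± 0.32, adjusted p = 0.294). The mean level over the 7 genes was -2.10, -2.34, -1.34 and -1.34 in NEKO replicates 2, 3, 5 and 6 and -2.04, -3.09, -2.63 and -2.38 in control replicates 1, 4, 7 and 8. The NEKO males were the highest, control replicate 1 lay above both NEKO females, and the part of the urothelium in the keratin values was not tested. NEKO replicate 3 had a mean urothelial level inside the control range, with its Upk1a the lowest of all mice, but its Upk2, Psca and Upk3b were above every control, as were its Krt5, Krt14 and Krt15.

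**Figure D4:**
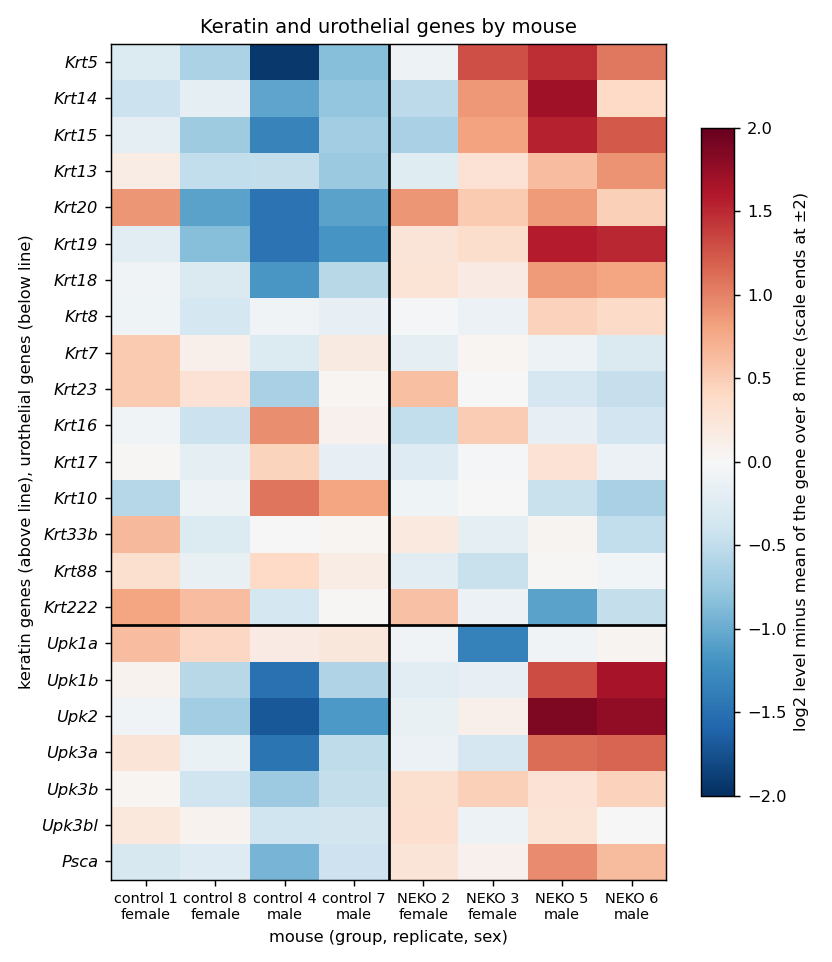
Levels of the 16 tested keratins (above the black line) and 7 urothelial genes (below it) in each mouse, shown as the log2 level minus the mean of the gene over 8 mice (red above, blue below, colour scale ending at 2 either way). Control replicate 4 is among the lowest and NEKO replicates 5 and 6 are among the highest for Krt5, Krt15, Krt19, Krt18, Upk1b, Upk2 and Upk3a, and Upk1a is lower in the NEKO mice.

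Lists for the cells of the distal tubule and collecting duct were mostly negative. The counts below stand against 7.37% of all features higher and 10.6% lower at an unadjusted p under 0.05. Collecting duct principal cell genes had 0 of 8 higher and 2 lower at an unadjusted p under 0.05, with a median change of -0.29. The lower genes were Hsd11b2, which inactivates corticosterone (-0.92), and the sodium channel subunit Scnn1b (-0.76), and the water channel Aqp4 and Fxyd4 had changes of -0.79 and -0.35. Intercalated cell genes had 5 of 7 lower (median -0.90), namely Aqp6 (-2.29), the anion exchanger Slc26a4 (-2.07) and the proton pump subunits Atp6v1g3 (-0.90), Atp6v0d2 (-0.90) and Atp6v1b1 (-0.63). The anion exchanger Slc4a1 had a change of -0.91 without passing. Thick ascending limb genes had 2 of 5 lower, Kcnj1 at -0.55 and Cldn10 at -0.23 (median -0.23), with Umod at -0.27 and Slc12a1 at -0.20. Distal convoluted tubule genes had 3 of 4 lower, Pvalb at -1.12, Trpm6 at -0.81 and Slc12a3 at -0.57 (median -0.69), with Calb1 at 0.01. None of these genes passed adjustment (adjusted p from 0.0640 for Atp6v1g3 upward), and their part in the keratin values was not tested.

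Tubular injury genes were highest in the NEKO males. Their mean level over 9 genes was -0.33, -0.25, 0.22 and 0.34 in NEKO replicates 2, 3, 5 and 6 and between -0.58 and -0.20 in the control mice, so that the NEKO males stood above all other mice, as they did for Krt8 and Krt19. Of the 9 genes 2 were higher (Sox9 and Lcn2) and 1 lower (Clu) at an unadjusted p under 0.05, against 7.37% and 10.6% of all features, and their part in the keratin values was not tested. The largest changes were 1.65 for Sox9, 0.95 for Timp1, -0.85 for Clu and 0.73 for Lcn2, the secreted lipocalin of damaged tubules. In males Timp1 had a change of 1.86 and in females 0.04. Mesothelial genes, which mark the capsule, had a median of 0.67 over 3 tested genes (Upk3b 0.78, Msln 0.67, Wt1 0.23). Proximal tubule genes had 1 higher, Slc22a6 at 0.34, and 1 lower, Slc5a2 at -0.43, of 7 (median 0.02), with Slc5a12 at -0.23 and Cubn at 0.14. Podocyte genes had 1 of 5 lower (Synpo at -2.45, against Nphs1 at 0.35, Wt1 at 0.23 and Podxl at 0.22), and smooth muscle genes had 0 of 5 in either direction (Tagln at -0.68, Cnn1 at 0.66, Myh11 at 0.41 and Acta2 at 0.26). Of 8 epidermal and hair follicle genes on the array only Lor and Tchh were tested, with changes of 0.17 and -0.01, and the other 6 were not detected.

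Genes of the structures to which keratins attach showed no call. Desmosome and plakin genes, which anchor keratin filaments to cell junctions, had 1 of 13 tested higher, Perp (0.20), and 0 lower at an unadjusted p under 0.05, with a median of 0.09. That count is near the share of all features, 7.37%. The largest changes were those of Pkp1, a plakophilin of stratified epithelium (1.28 ± 0.61, adjusted p = 0.320, well above background in 3 NEKO and 2 control mice), Evpl (0.46), Dsc2 (-0.41) and Dsg2 (0.33). The other intermediate filament genes had 1 of 9 higher, Vim, the filament of mesenchymal cells (0.66 ± 0.22, adjusted p = 0.204), with Sync at 0.69, Nefl at 0.60 and Synm at 0.44.

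The cornified envelope is the protein shell that squamous cells lay down over their keratin. Of 21 such genes on the array 10 were tested, 0 were called, and at an unadjusted p under 0.05 3 were higher and 1 lower (median 0.01), against 7.37% and 10.6% of all features. Sprr1a, a small proline-rich envelope protein, was -0.01, 0.49, 1.81 and 1.58 in the NEKO mice and between -1.69 and -0.20 in the control mice, without overlap (1.88 ± 0.47, adjusted p = 0.139). Sprr2g and Sprr2e changed by 1.35 and 0.59, with both NEKO males above all other mice. Sprr4 changed the other way (-1.73 ± 0.52, adjusted p = 0.177). The Sprr2 genes are close in sequence, so that their probes may share signal.

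Of 16 tested transcription factors of epithelia 0 were called, and 3 were higher at an unadjusted p under 0.05, against 7.37% of all features (median 0.19). Klf5, a factor of dividing basal cells, was between -2.25 and -1.77 in NEKO and between -2.91 and -2.44 in control kidneys (0.69 ± 0.14, adjusted p = 0.104). The groups were separate, and unlike for Krt14 and Krt15 NEKO replicate 2 was the highest. The others higher were Sox9 (1.65, adjusted p = 0.144) and Pparg (0.36), and Elf5 had a change of -0.84 without passing. The Nrf2 targets were the list with calls: 2 of 17 rose after adjustment, against 0.0970% of all features. They were Gpx2, a glutathione peroxidase of epithelia (5.40, adjusted p = 0.0106), and Txnrd1, a thioredoxin reductase (1.30, adjusted p = 0.0486). At an unadjusted p under 0.05, 15 of the 17 were higher, against 7.37% of all features. The median change of 1.05 over the Nrf2 targets compares with 0.14 over the keratins.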

How the data were processed

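Kidney RNA of 4 NEKO and 4 control mice was measured on 8 Agilent arrays. The authors deposited the Feature Extraction output of each array, in which the processed signal is a background-subtracted intensity, and a matrix of log2 values. The deposited log2 values equal the recomputed ones after centring each probe (100% within 0.01). The paper does not name the normalization or test used for the arrays; its general statistics name an unpaired comparison with unequal variances. Groups were taken from the labels.

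Outlier spots (between 73 and 172 of 43379 spots per array) were left out and spots of 1 probe averaged. From log2 processed signal the 75th percentile over all non-control probes was subtracted, array by array. Probes well above background on 4 or more arrays and with a value on 6 or more were kept, and the brightest of these stood for its gene. Unversioned accessions were matched to RefSeq (GRCm38.p6), which named 26690 of 41174 probes. The number of arrays limits the precision. The controls were littermates of the NEKO mice, but the labels do not say which mice shared a litter, so litter could not be a term. The p-values set each difference against the spread between these mice, in which litter and individual cannot be told apart.

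limma 3.58.1 under R 4.3.3 was run with genotype and sex over 13570 genes and 6023 unnamed transcripts, and with their interaction in a second model, with Benjamini-Hochberg adjustment. Single keratins were also compared by a two-sided exact permutation test. Simulated data had 19514 features, with 200 changed between NEKO and control in each of 5 runs. Of these changes, 72% of the 2-fold and 93.4% of the 4-fold ones were recovered, and 5.3% of calls were false. A further 200 features changed in males only, and calls on these did not count as false. The noise was the spread left by the interaction model, with no other difference between the sexes. The recovery therefore does not tell how many real changes the test would find in these mice.

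The keratins, the lists and the tests were chosen with earlier results of these data known. Named were all detected keratins, and of each list the called members or else up to 4 with the largest change, with Keap1 and Nqo1 as checks; Upk1a, Sprr2e, Lcn2 and the other genes that make up a count of 5 or fewer were named with their values seen. Of the transcription factors, the lower ones are not reported here. Alternatives were normexp background correction (offset 50), quantile normalization, another scaling, detection filters, probe averaging, other models, moderation and weights, the methods' comparison, the deposited matrix, stricter thresholds and leaving out each mouse.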

Additional observations from a re-analysis of the deposited data

Results flagged for a closer look

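Each group of 4 mice was examined for a mouse far from the other 3, for each of the 16 tested keratins, by the gap to its nearest neighbour as a share of the range of the group against Dixon's limit. None of the 32 groups passed that limit, where chance gives about 1 in 20. The nearest to it was Krt20 in the control mice, where replicate 1 stood 1.96 from the next mouse in a range of 2.37, a share of 0.828 and just under the limit. No keratin passed adjustment for a difference between the sexes.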

How the results depend on the processing

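Of 366 values of the 16 keratins under alternative settings, 352 kept their direction and their side of the threshold, 8 moved past the threshold and 6 changed sign. The number of keratins called higher was 0, and became 2 (Krt18, adjusted p = 0.0282; Krt19, adjusted p = 0.00643) when the interaction model was averaged over the sexes, and 5 (Krt5, Krt13, Krt15, Krt18 and Krt19) under the methods' comparison without adjustment. It ranged from 0 to 1 with a mouse left out, where the 1 was Krt20 without control replicate 1. The shares of all features called under these alternatives were not counted. The numbers called lower and differing between the sexes were 0 under every alternative run. Signs turned only near 0. Krt17 was 0.0075 with array weights and from -0.18 to 0.055 with a mouse left out (above 0 without control replicate 4 or NEKO replicate 6). Krt23 was from -0.24 to 0.035 (above 0 without NEKO replicate 3 or control replicate 7), and Krt16 from -0.56 to 0.018 (above 0 without control replicate 4). Keap1 kept its change of -1.63 but had an adjusted p of 0.140 under the methods' comparison. Krt20 changed by 0.81 with normexp correction. The motif count was 7 with the core and 4 with the longer form. Apart from the longer motif, which asks for more letters, the cause was not tested. Krt88 and Krt222 gave no value when detection on all 8 arrays was required. No paired analysis was possible because the labels do not tie littermates together and no replicate number is shared by the groups.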
